A study of Drosophila melanogaster with 6 samples.

Results

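The genes described here are the very long genes of the Drosophila melanogaster ovary, those whose genomic span, introns included, is 100 kb or more. They were taken from the length column of the 6 deposited count tables, on the chromosome arms X, 2L, 2R, 3L and 3R. The rule found 87 of the 17559 genes in each table. Of these, 69 reached 10 or more counts in at least 3 libraries and are reported gene by gene, and the other 18 were below that minimum. All 69 also entered the statistical test, which covered 8110 genes in all. By arm, the 69 comprised 21 genes on X, 11 on 2L, 8 on 2R, 17 on 3L and 12 on 3R.

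Poly(A) RNA from dissected ovaries was sequenced in 3 mutant and 3 control libraries from flies kept at 25 °C. The mutant genotype was RanBP9D1 /BSC469, which puts an allele of RanBP9 opposite the deficiency BSC469. The control genotype was w1118/BSC469, with a chromosome of a common laboratory strain in place of the allele, so every fly in either group carried the deficiency. RanBP9 is an older name of Ipo9, whose product, Importin-9, is known to carry actin into the nucleus, and the stated purpose of the series was to examine transcription when nuclear actin is low. The labels give neither the age of the females nor whether the replicates are separate crosses or separate dissections, so the p-values measure the spread between these libraries, which may be technical.

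A very long gene consists mostly of intron. RNA polymerase II has to stay on the template from the promoter to the end of the gene, and the introns are removed while transcription is under way, so such genes are widely used to look at elongation and co-transcriptional splicing. In flies, long genes are frequent among those for cell-surface adhesion molecules, transcription factors and RNA-binding proteins with many alternative promoters. The ovary adds germline nurse cells that become highly polyploid and supply mRNA to the oocyte, follicle cells around them and a muscle sheath.

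Library totals ran from 21583524 to 26483578 counted reads. Ipo9 itself (FBgn0037894, 11412522 to 11416142 on 3R) had 1980 to 2513 counts in the mutant and 2733 to 3375 in the control libraries. The groups did not overlap after scaling, but the difference of −0.47 on the log2 scale (SE 0.12, adjusted p = 0.0544, edgeR) missed the threshold. Marker lists were read alongside the long genes, as the summed level of each list in CPM, counts relative to the scaled size of the library. Of the 14 germline genes listed, 12 were tested, and 2 were higher and 2 lower, with sums of 5788 to 6148 in the 6 libraries. Of 15 follicle cell genes, 5 were lower and none higher, with sums of 16019 to 18509 in mutant and 20955 to 26918 in control libraries. The 5 were the eggshell genes Cp38, Cp36, Cp16, Vm34Ca and Vm26Ab, which hold much of the sum. The rest of the list was short of the threshold and went in both directions. Log2 fold changes were positive for br (0.35), tj (0.25), eya (0.22), ct (0.19), Cp18 (0.02) and slbo (0.02). They were negative for Vm26Aa (−0.35), Fas3 (−0.23), Mmp2 (−0.21) and mirr (−0.02). The median log2 difference of the list from the control mean was 0.06, −0.01 and −0.63 in the mutant libraries. None of 16 muscle, 6 tested hemocyte and 2 tested fat body genes passed the threshold, nor did their sums separate the groups. The fat body sum was nearly all Yp1, with 3340 of 3363 CPM in mutant replicate 1. The other tested fat body gene, apolpp, was at −0.92 on the log2 scale (SE 0.37, adjusted p = 0.185, edgeR). Gut markers were nearly confined to 1 library, with 112 CPM in mutant replicate 2 and at most 3.48 elsewhere, and were not tested. Of 2 tested testis genes 1 was higher. In bulk ovaries, fewer cells of a type and less RNA per cell cannot be told apart.

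The reported long genes had a median span of 132 kb, against 2.87 kb over all genes tested with an annotated structure, and ranged from 101 to 396 kb. Exons made up a median of 7.38% of that span, against 82.2% over all tested genes, although the summed exon length was also larger, with medians of 10174 and 2149 bases. The longest intron had a median of 65240 bases, and in 28 of the 69 genes it covered more than 50% of the span. They carried a median of 7 annotated transcripts and 3 nested genes, against 2 and 0. Per kilobase of exon they were at a median of 4.56 CPM, below the 22.8 CPM of all tested genes. Protein-coding genes made up 66 of the 69, and 3 were noncoding.

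Levels per kilobase of exon spanned a wide range among the long genes. bru1, which encodes the Bruno protein that represses translation of maternal mRNAs, had the highest mean over the 6 libraries, 158 CPM per kilobase. CG1677 followed with 85.1, AGO3, an Argonaute of the piRNA pathway, with 73.6, Mur2B with 64.8, Parp1, a poly(ADP-ribose) polymerase, with 59.1, and Dbp80, a DEAD-box RNA helicase, with 44.8. At the other end stood dpy, a giant extracellular protein, with 0.014 CPM per kilobase of exon. rg had the fewest counts, 55 over the 6 libraries, but 94.4% of its exon is shared with another gene on the same strand, so its level is uncertain. In the order of the leading 6, bru1 stood clear of CG1677 in every library, with 154 ± 2.05 CPM per kilobase in mutant and 161 ± 1.94 in control libraries, against 85.1 ± 3.77 and 85 ± 2.18 for CG1677 (here and throughout, mean ± SD of 3 libraries). Mur2B, at 60.6 ± 12.4 and 69 ± 9.19, and Parp1, at 61.1 ± 3.6 and 57.2 ± 4.1, did not differ beyond their spread. Part of the exon of CG1677 (14%) and of Mur2B (4%) is shared with another gene on the same strand, so their counts are uncertain.

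In mutant against control ovaries, the long genes changed about as often as other genes and in both directions. Of the 69, 6 were higher, 5 were lower and 58 did not pass the threshold, an adjusted p under 0.05 by edgeR. The 11 are 15.9% of the 69, close to the 14.5% called among all 8110 genes tested, of which 8.31% were higher and 6.2% lower. The genes that rose were the adhesion genes Ten-a, DIP-lambda, Ptp99A and Ten-m, the uncharacterised gene CG41520 and the noncoding gene lncRNA:CR32773. Those that fell were CG44153, CG32373, the transcription factor gene Cph, the phosphodiesterase gene Pde9 and SKIP.

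The median log2 fold change of the 69 was 0.01, against −0.003 over all tested genes, and 39 lay within 0.2 of no change. The middle 50% ran from −0.09 to 0.21, and the 58 genes short of the threshold from −0.60 to 0.96. The median absolute change was 0.14, against 0.10 over all tested genes. At an unadjusted threshold of 0.05, 22 of the 69 would have passed. The mutant and control libraries did not overlap for 22 of the 69 (31.9%), 10 with the mutant above and 12 with it below, against 34.9% of all genes tested. A change of 2-fold or more that also passed the threshold was seen in 4 long genes (5.8%), against 2.28% of all tested. Leaving out mutant replicate 3 raised the calls to 20 of 70, 14 higher and 6 lower. That is 28.6%, against 17.9% of all genes in that fit. The 20 include CG34353, which is under the reporting minimum and entered that fit only through mutant replicates 1 and 2. Leaving out any other single library gave 7 to 10, or 10% to 14.3%, against 6.88% to 9.62% of all genes in those fits.

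**Figure D1:**
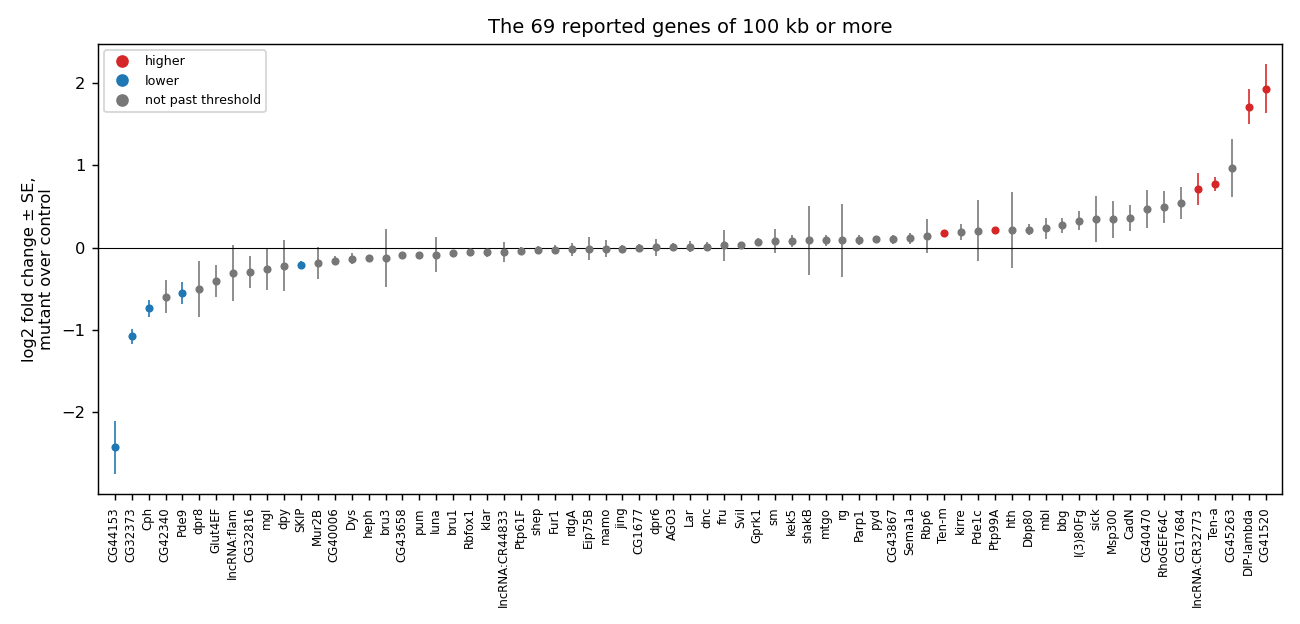
Log2 fold change, mutant over control, of the 69 reported long genes, ordered by size, with bars of ± 1 SE from edgeR. Red and blue mark the 6 genes that rose and the 5 that fell, and 39 genes lie within 0.2 of the zero line.

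The share of genes called varied little with span up to 200 kb, while the direction of the calls did not stay the same. Among tested genes under 1 kb 14% were called, of 1 to 3 kb 14.7%, of 3 to 10 kb 14.8%, of 10 to 30 kb 13.7%, of 30 to 100 kb 13.3% and of 100 to 200 kb 12.9%. Calls were mostly higher under 1 kb (74 higher, 35 lower) and at 1 to 3 kb (349 and 152), but not at 3 to 10 kb (172 and 188), 10 to 30 kb (46 and 84) or 30 to 100 kb (23 and 29). The median log2 fold change was 0.04 under 1 kb and lay between −0.03 and 0.01 in the other classes up to 200 kb. The trend over classes was not tested. In the 62 reported genes of 100 to 200 kb, 3 rose and 5 fell. Of the 7 reported genes over 200 kb, 3 rose (Ten-a, DIP-lambda and lncRNA:CR32773) and none fell, and their median was 0.54, a class too thin to set against the others. The other 4 were CG17684 at 0.54, l(3)80Fg at 0.33, kirre at 0.19 and bru3 at −0.12. Across the 69 genes the Spearman correlation of span with log2 fold change was 0.18 and with its absolute size 0.02, a description over genes that share the same 6 libraries.

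**Figure D2:**
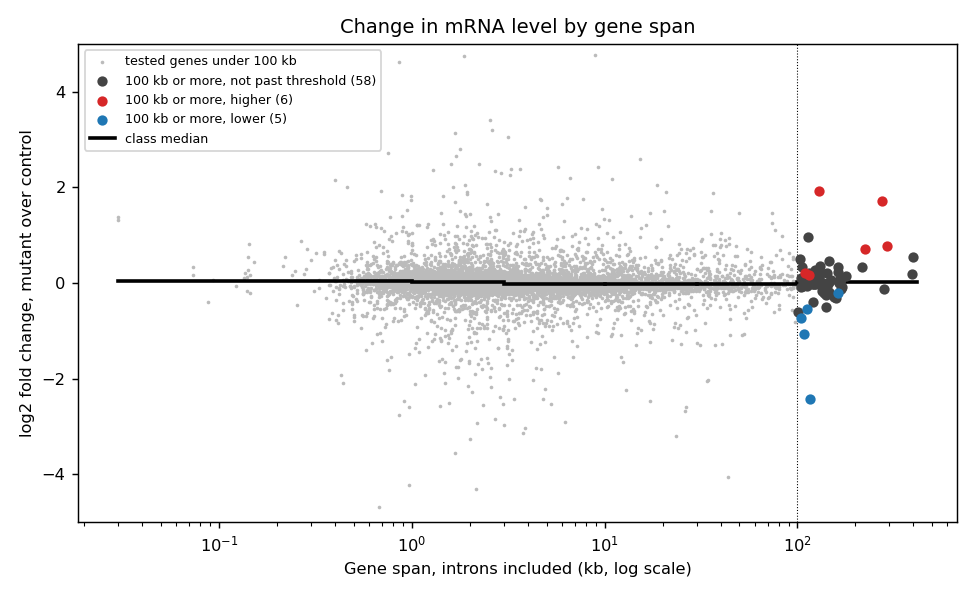
Log2 fold change, mutant over control, against gene span in kb on a log axis, for tested genes under 100 kb (small grey points) and the 69 long genes (large points, red for 6 higher and blue for 5 lower). Black lines are medians of span classes and stay close to 0, with the last line drawn over all 69 long genes, and 9 shorter genes beyond ±5 are not drawn.

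Values on either side of the length minimum were as follows. Just below it, CG45002 at 97.7 kb had a log2 fold change of −0.80, CG43759 at 98.3 kb −0.04 and cpo at 99.1 kb −0.11. Just above it, CG42340 at 101 kb had −0.60 and RhoGEF64C at 103 kb 0.49, and Antp at 103 kb was below the reporting minimum. A span of 100 kb does not mean that every transcript is that long. For 21 of the 69 genes every annotated transcript covers at least 100 kb. Of these 3 rose and 1 fell (19% called), with a median log2 fold change of 0.08. For 32 genes the shortest transcript is under 30 kb, and 2 rose and 3 fell (15.6%), with a median of 0.02. For 16 genes it is 30 to 100 kb, and 1 rose and 1 fell (12.5%), with a median of −0.02. Over all tested genes 14.5% were called.

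Long genes with fewer counts had larger estimated fold changes, and their estimates were less precise. The SE was 0.34 for lncRNA:flam and 0.04 for bru1, for example. Scatter of the estimates was not separated from a larger change. In the 34 of the 69 genes with the lower mean CPM, not corrected for length, 8 were called and the median absolute log2 fold change was 0.31. In the 35 with the higher mean CPM, 3 were called and it was 0.09. Over all tested genes, not split by level, 14.5% were called. The Spearman correlation of mean CPM with absolute log2 fold change was −0.53 across the 69 genes and −0.42 across all tested genes. Per kilobase of exon, the called long genes had a median of 1.87 CPM, against 5.4 CPM in those not called.

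Cell-surface adhesion molecules held 4 of the 6 rises. Of 9 reported long genes with a role in adhesion or with immunoglobulin domains, 4 rose, none fell and 5 did not pass the threshold. Over all tested genes, 8.31% rose and 6.2% fell. The median log2 fold change of the 9 was 0.19. These proteins are best known for the recognition of partner cells by growing axons. Among 31 tested genes of the same list under 100 kb, 1 rose (DIP-beta) and 3 fell (Ptp69D, Cad87A and Dscam4), or 12.9% called. Their median was −0.04, and the difference between the long and the shorter members of the list was not tested.

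Ten-a (FBgn0267001, plus strand of X, 12043698 to 12335214) encodes a teneurin, a large transmembrane protein that matches synaptic partners. It had 1074, 875 and 860 counts in mutant and 582, 589 and 518 in control libraries, always in the order of replicates 1 to 3. Scaled, the groups were at 40.2 ± 1.81 and 23.7 ± 2.96 CPM. Every mutant library was above every control library, and the log2 fold change was 0.77 (SE 0.08, adjusted p = 4.4e-04, edgeR). Of its exon, 4.3% is shared with another gene on the same strand. Ten-m (FBgn0004449, minus strand of 3L, 22293044 to 22407863), the other fly teneurin, changed far less. It had 1467, 1193 and 1225 counts in mutant and 1300, 1083 and 1158 in control libraries, or 55.6 ± 1.5 and 49.3 ± 0.458 CPM. The scaled groups did not overlap, and the log2 fold change was 0.17 (SE 0.05, adjusted p = 0.0304, edgeR). Of its exon, 5% is shared with another gene on the same strand. It lost the call in 8 of 14 alternatives, DESeq2 among them, with adjusted p-values up to 0.119.

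DIP-lambda (FBgn0267428, plus strand of 2R, 432219 to 705848) encodes an immunoglobulin protein of the family that binds the Dpr surface proteins. It had 113, 100 and 108 counts in mutant and 31, 37 and 32 in control libraries, or 4.61 ± 0.201 and 1.41 ± 0.271 CPM. Every mutant library was far above the highest control library, and the log2 fold change was 1.71 (SE 0.22, adjusted p = 9.4e-04, edgeR), a 3.28-fold difference. Its annotated exons add up to 2461 bases, 0.899% of the span, and the span in the current annotation differs from the deposited one. Ptp99A (FBgn0004369, plus strand of 3R, 29377646 to 29487131), a receptor tyrosine phosphatase of motor axons, had 1986, 1610 and 1747 counts in mutant and 1723, 1445 and 1585 in control libraries. The scaled levels were 76.6 ± 2.18 and 66.3 ± 1.35 CPM, without overlap, a difference of 0.21 on the log2 scale (SE 0.04, adjusted p = 0.0113, edgeR). Without control replicate 1 its adjusted p was 0.0624, the highest of 15 alternatives, and the other 14 kept the call.

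The remaining adhesion genes did not pass. N-cadherin (CadN) had a log2 fold change of 0.36 (SE 0.16), kirre, an immunoglobulin protein of muscle founder cells, 0.19 (SE 0.10), and dpr8 −0.50 (SE 0.34). The values of dpr6, at 0.003 (SE 0.10), and the receptor phosphatase Lar, at 0.01 (SE 0.06), were near 0, though 83.6% of the exon of Lar is shared with another gene on the same strand. In a list of 15 neuronal markers, 5 had enough counts to test and 1, Appl, was higher, by 0.57 on the log2 scale (SE 0.14, adjusted p = 0.0244, edgeR). Syt1, ChAT and VGlut were at 0 in every library, and the summed level of the list, most of it Syx1A, was 54.0 to 54.7 CPM in mutant and 51.8 to 55.6 in control libraries. The median log2 difference of the tested genes from the control mean was 0.43, 0.39 and −0.03 in the mutant and −0.02, 0.12 and −0.04 in the control libraries. The part of neuronal RNA in the adhesion genes was not tested.

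Of the 5 long genes that fell, 2 have no role assigned. Cph, Pde9 and SKIP were given roles only after the members were seen. The role groups of the falls therefore cannot be set against those of the rises. CG44153 (FBgn0265002, minus strand of 2L, 10064121 to 10180256) had 14, 10 and 9 counts in mutant and 65, 40 and 79 in control libraries, or 0.47 ± 0.0734 and 2.55 ± 0.767 CPM. All 3 mutant libraries were far below the lowest control library, and the log2 fold change was −2.42 (SE 0.32, adjusted p = 0.00117, edgeR). It met the reporting minimum in all 3 control and 2 of the mutant libraries, so its place among the reported genes rests mainly on the control group. CG32373 (FBgn0052373, plus strand of 3L, 7650548 to 7759123) had 217, 179 and 194 counts in mutant and 504, 352 and 429 in control libraries, or 8.46 ± 0.214 and 17.8 ± 1.44 CPM. The groups were well apart and the mutant libraries close together, at −1.07 on the log2 scale (SE 0.09, adjusted p = 9.3e-05, edgeR), the smallest p among the long genes. A single intron of 106117 bases takes up most of its 109 kb.

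Cph (FBgn0029939, plus strand of X, 7137723 to 7241932) encodes the zinc finger transcription factor Chronophage, known from neuroblasts. It had 219, 188 and 175 counts in mutant and 386, 275 and 341 in control libraries, or 8.34 ± 0.461 and 13.9 ± 1.08 CPM. The groups did not overlap, and the log2 fold change was −0.74 (SE 0.10, adjusted p = 0.00142, edgeR). The other 8 reported transcription and chromatin genes did not pass the threshold, with Glut4EF at −0.40 (SE 0.20), Parp1 at 0.10 (SE 0.06) and the homeodomain gene hth at 0.21 (SE 0.46). Of the exon of Glut4EF, 27.8% is shared with another gene on the same strand.

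Pde9 (FBgn0259171, minus strand of X, 12785563 to 12897327) encodes a cyclic nucleotide phosphodiesterase. It had 145, 129 and 121 counts in mutant and 210, 163 and 223 in control libraries, or 5.67 ± 0.267 and 8.3 ± 1.06 CPM, which is −0.55 on the log2 scale (SE 0.14, adjusted p = 0.0251, edgeR). SKIP (FBgn0051163, plus strand of 3R, 22133830 to 22296126), named for its interaction with the Shal potassium channel, had the highest level per kilobase of exon of the genes that changed, 31.7 ± 0.735 CPM in mutant and 36.6 ± 2.34 in control libraries. It had 5436, 4673 and 4979 counts in mutant and 6576, 5815 and 5540 in control libraries. Its scaled levels were 217 ± 5.02 and 250 ± 16 CPM, which is −0.21 on the log2 scale (SE 0.05, adjusted p = 0.0212, edgeR). Neither gene had overlapping groups, but both calls were lost in some alternatives, Pde9 in 6 of 15 with adjusted p-values up to 0.0998 without control replicate 3, and SKIP in 5 of 15, up to 0.129 without both replicates numbered 2.

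The remaining rises were in CG41520 and lncRNA:CR32773. CG41520 (FBgn0087011, plus strand of 2R, 1649061 to 1778937) had 55, 44 and 44 counts in mutant and 10, 15 and 13 in control libraries, or 2.05 ± 0.0955 and 0.54 ± 0.157 CPM. The mutant libraries were tightly grouped and far above the control libraries, at 1.93 on the log2 scale (SE 0.30, adjusted p = 0.00269, edgeR), the largest rise among the 69. The noncoding gene lncRNA:CR32773 (FBgn0052773, minus strand of X, 4387676 to 4611385) had 127, 162 and 117 counts in mutant and 86, 82 and 89 in control libraries, or 5.88 ± 1.37 and 3.6 ± 0.315 CPM. Mutant replicate 2 stood above the rest, and the log2 fold change was 0.71 (SE 0.19, adjusted p = 0.0375, edgeR). The adjusted p was 0.138 without that library and at most 0.192 in the alternatives, 6 of 15 of which lost the call. CG32373, Ten-a, DIP-lambda, CG44153, Cph and CG41520 kept the call in every alternative fit in which they were tested, although Ten-a (1.70-fold) and Cph (1.67-fold) fall short of a 2-fold minimum.

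**Figure D3:**
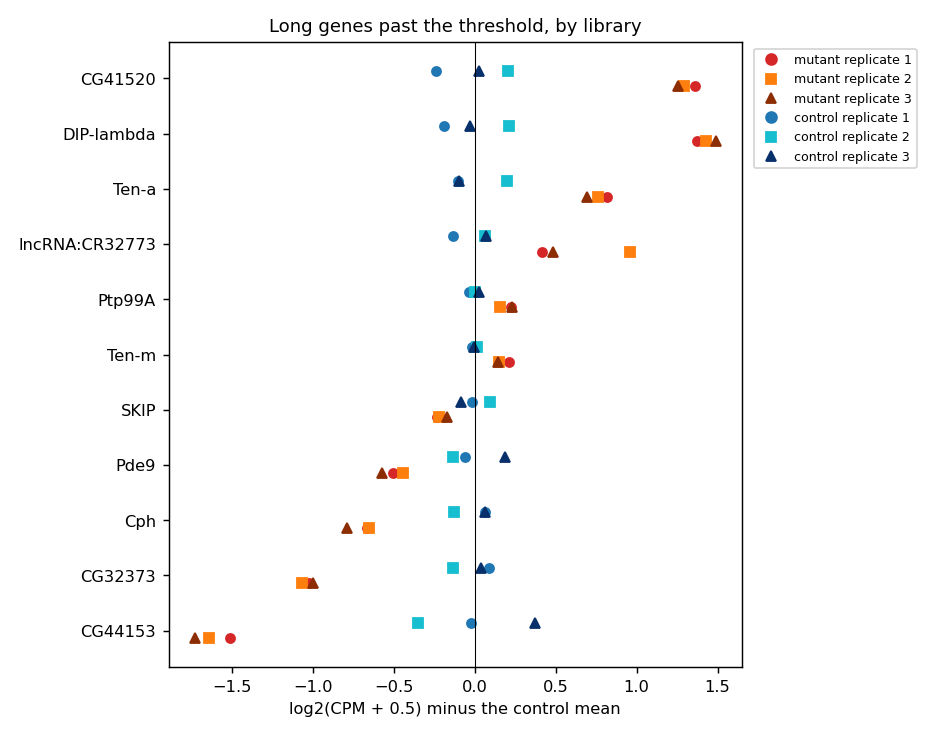
Level of the 11 called long genes in each library, as log2(CPM + 0.5) minus the mean of the 3 control libraries. Red and orange symbols are mutant and blue symbols control replicates 1 to 3, and for none of the 11 genes do the 2 groups overlap.

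The long genes for RNA-binding proteins did not pass the threshold in either direction. The 10 were heph, Dbp80, pum, mbl, bru1, Rbfox1, Rbp6, shep, sm and bru3, and none was called, against 14.5% of all tested genes. They lay between −0.12 and 0.24, with a median log2 fold change of −0.04. Dbp80, at 0.22, was put on the list after the members were seen. The nearest to the threshold was heph, for the polypyrimidine tract-binding protein, with 232, 227 and 235 CPM in mutant and 248, 256 and 251 in control libraries. These groups did not overlap, and the log2 fold change was −0.12 (SE 0.04, adjusted p = 0.0519, edgeR), past the threshold in 3 of 15 alternatives and at most 0.277. pum, a repressor of maternal mRNA translation, was at −0.09 (SE 0.04, adjusted p = 0.161, edgeR), and bru1 at −0.06 (SE 0.04, adjusted p = 0.323, edgeR) with 30370, 26500 and 26845 counts in mutant and 33126, 27619 and 29186 in control libraries. In the piRNA pathway, AGO3 was at 0.01 (SE 0.04) and the flamenco precursor lncRNA:flam, with 10 to 20 counts per library, at −0.31 (SE 0.34).

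Among cytoskeletal, signalling and secreted proteins of this length, Pde9 alone passed. None of 7 cytoskeleton and polarity genes passed, with the PDZ-domain gene bbg at 0.27 (SE 0.09, adjusted p = 0.0812, edgeR), the ZO-1 homologue pyd at 0.10 (SE 0.04, adjusted p = 0.149, edgeR) and the dystrophin gene Dys at −0.13 (SE 0.06). Of 9 signalling genes the other 8 did not pass, among them RhoGEF64C at 0.49 (SE 0.20) and the G protein-coupled receptor kinase gene Gprk1 at 0.07 (SE 0.05). None of 5 matrix and secreted proteins or their receptors passed, with the axon guidance ligand Sema1a at 0.11 (SE 0.07), the megalin gene mgl at −0.26 (SE 0.25) and Mur2B at −0.19 (SE 0.19). Of the 16 long genes given no role, 2 rose (CG41520 and lncRNA:CR32773), 2 fell (CG32373 and CG44153) and 12 did not pass.

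Factors that act on long transcription units were also mostly short of the threshold. Of 30 tested genes for elongation factors and for the U1 and U2 splice-site machinery, 29 did not pass. That is 3.33% called, against 14.5% of all tested genes, and the median log2 fold change was −0.01. snRNP-U1-C, a protein of the U1 particle that recognises the start of an intron, fell from 29.4 ± 1.35 to 20.2 ± 0.154 CPM, which is −0.54 on the log2 scale (SE 0.06, adjusted p = 4.9e-04, edgeR). The other 29 lay between −0.29 and 0.15.

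Long genes close to the centromeres mostly had positive log2 fold changes. The windows next to the centromeres, set from 23 Mb on X, 22 Mb on 2L, up to 5.4 Mb on 2R, from 23 Mb on 3L and up to 4.5 Mb on 3R, held 10 reported long genes, of which 2 rose (CG41520 and DIP-lambda) and none fell. That is 20% called, against 14.5% of all tested genes on the arms. Of the 10 log2 fold changes 9 were positive, with a median of 0.27. Positive values were seen in 3966 of the 8019 tested genes on the arms. They were seen in 29 of the 59 long genes elsewhere and in 66 of the 159 shorter genes in the windows. For the 59 long genes elsewhere the median was −0.01, and 4 rose and 5 fell (15.3% called). Among the 159 tested genes under 100 kb in the same windows, 8 rose and 17 fell (15.7%), with a median of −0.03. Of these, the 17 genes of 30 to 100 kb had 1 rise and 4 falls (29.4%), with a median of −0.08. The windows were set with earlier results of these data known, and the difference between these groups was not tested.

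Of the 10, 8 did not pass the threshold. CG17684 (FBgn0263780, 2R, 1866080 to 2262115), the longest reported gene at 396 kb, had 94, 94 and 82 counts in mutant and 70, 66 and 55 in control libraries, without overlap after scaling, at 0.54 (SE 0.20, adjusted p = 0.098, edgeR). CG40470 was at 0.47 (SE 0.23) and l(3)80Fg at 0.33 (SE 0.11, adjusted p = 0.104, edgeR). Dbp80, with means of 114 ± 5.69 CPM in mutant and 98.1 ± 8.48 in control libraries, was at 0.22 (SE 0.07, adjusted p = 0.0549, edgeR), and passed in 3 of 15 alternatives, whose adjusted p-values ran from 0.0294 to 0.163. Parp1, Gprk1 and AGO3 lay between 0.01 and 0.10, and CG40006 at −0.16 (SE 0.05, adjusted p = 0.077, edgeR). In these windows the mutant libraries lay above all control libraries for 5 of the 10 genes and below for 1, against 18.4% and 16.5% of all tested genes, and for 23 and 37 of the 159 shorter genes there.

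**Figure D4:**
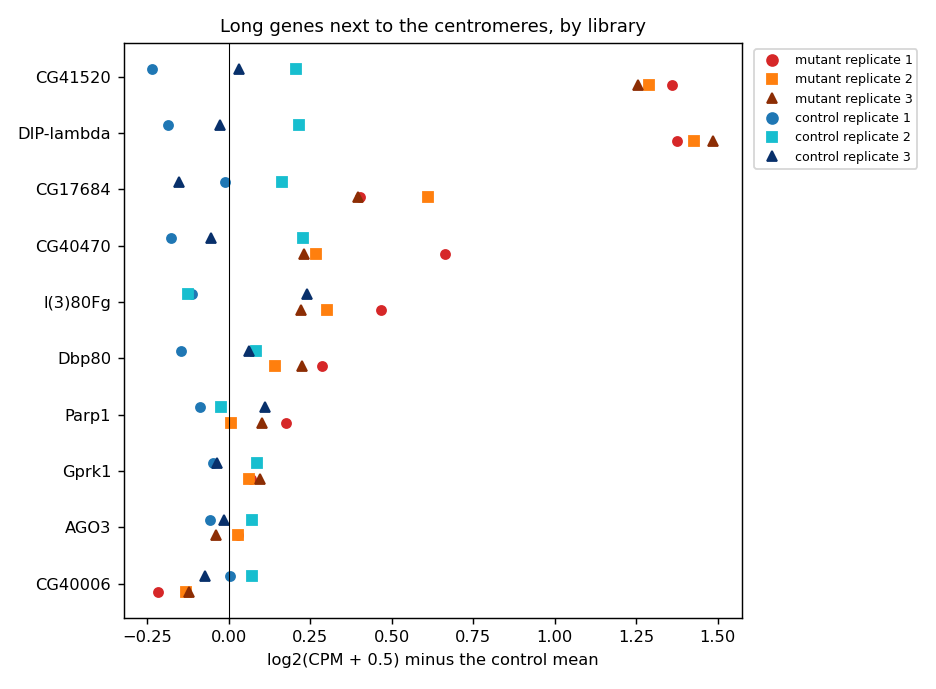
Level of the 10 reported long genes in the windows next to the centromeres, in each library, as log2(CPM + 0.5) minus the mean of the 3 control libraries. CG41520 and DIP-lambda stand apart at the top, and the fold changes of the other 8 genes run from −0.16 to 0.54.

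Genes nested inside long genes and genes beside them were read in the same fit. Of 44 tested nested genes in 18 hosts, 4 fell and none rose, or 9.09% called, against 14.5% of all tested genes. Of the 16 that lie in a called host, 2 were called, both in hosts that also fell. Mcad, a fatty acid oxidation enzyme that lies within CG32373 on the same strand, fell from 312 ± 20.6 to 242 ± 17.9 CPM, a log2 fold change of −0.37 against −1.07 for its host. CG4839, within CG44153 on the opposite strand, fell by 0.75 on the log2 scale from 15 ± 2.82 to 8.88 ± 1.35 CPM. unc-119 in CG1677 and Cyp4g1 in CG32816, at −0.15 and −1.58, lie in hosts that did not pass. Of the 21 nearest tested neighbours of the 11 called genes, 2 were called (9.52%, against 14.5% of all tested genes), Cyp311a1 beside Ten-a at 0.75 (SE 0.18) and IleRS beside Ten-m at 0.19 (SE 0.05), both higher.

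Mutant replicate 3 stood apart for some long genes. It was the lowest of the 6 libraries for 21 of the 69 (30.4%), against 19.7% of all tested genes, and control replicate 1 was the lowest for 23 (33.3%), against 12.8%. In 8 long genes (11.6%), against 5.33% of all tested, mutant replicate 3 was at least 1.5-fold below both other mutant libraries, a set chosen after the values were seen and not tested. They were CG32816, CG45263, Glut4EF, Msp300, RhoGEF64C, dpr8, mgl and sick. RhoGEF64C was at 24.8, 25.3 and 15.1 CPM in the mutant libraries and 14.7, 15.4 and 16.3 CPM in the control libraries. Only mutant replicates 1 and 2 were above the controls, and without replicate 3 the log2 fold change of RhoGEF64C was 0.70 with adjusted p = 2.0e-04 (edgeR), in a range of 2.0e-04 to 0.509 over the alternatives. CG45263 behaved likewise, at 2.78, 2.35 and 1.21 CPM in mutant and 0.94, 1.43 and 0.894 in control libraries, with an adjusted p of 0.0972 with and 0.0151 without mutant replicate 3. Msp300, a giant nesprin that links nuclei to the cytoskeleton in muscle, was at 51, 52.6 and 32.7 CPM in mutant and 31.5, 42 and 34.1 in control libraries. Over 16 muscle genes, one of which is Msp300, the median log2 difference from the control mean was 0.46, 0.32 and −0.29 in the mutant and −0.45, 0.22 and 0.20 in the control libraries, again in replicate order. Over the 6 tested genes of the hemocyte list (crq, Col4a1, vkg, srp, Ppn and Pxn) it was 0.65, 0.34 and −0.17 in the mutant libraries. In the control libraries it was −0.09, 0.10 and 0.05. The rest of that list, Hml, NimC1, eater and He, had at most 11 counts in any library and was not tested. Over 15 follicle cell genes the median was 0.06, −0.01 and −0.63 in the mutant and 0.03, −0.02 and 0.06 in the control libraries. The part of sheath, hemocyte and follicle cell RNA in these values was not tested.

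**Figure D5:**
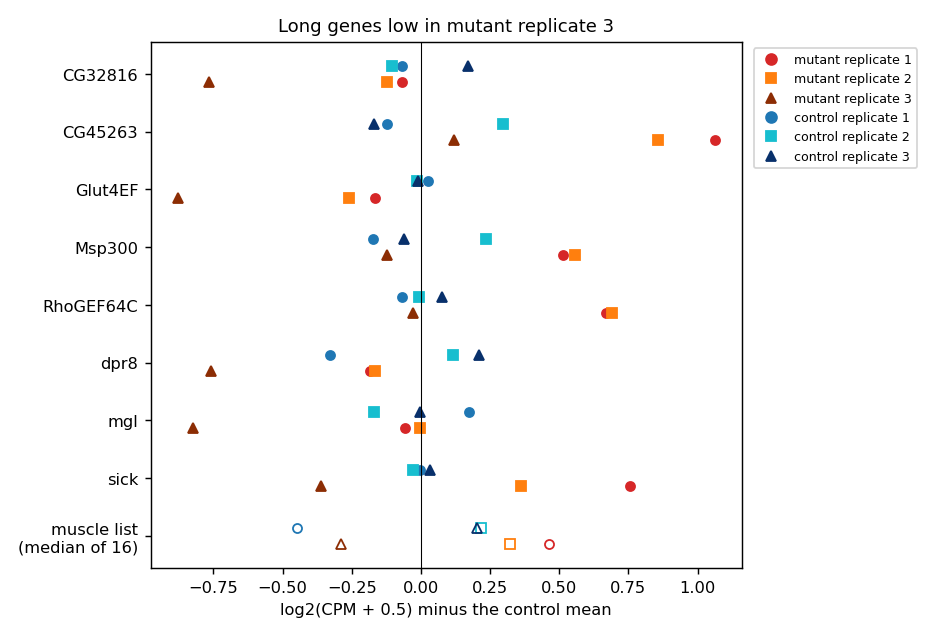
Level in each library of the 8 long genes for which mutant replicate 3 (brown triangles) was at least 1.5-fold below the other mutant libraries, as log2(CPM + 0.5) minus the control mean, with the median of 16 muscle genes in the last line (open symbols). In the muscle list mutant replicate 3 and control replicate 1 lie below 0 and the other 4 libraries above it.

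The part of the library taken by the long genes did not separate the genotypes. Their share of all counts was 0.731%, 0.727% and 0.698% in mutant and 0.741%, 0.747% and 0.712% in control libraries. The means were 0.718% ± 0.018 and 0.734% ± 0.0186 (SD, n = 3), and the difference of −0.0151 percentage points had p = 0.4 in an exact two-sided permutation test, where 3 against 3 cannot go below 0.1. The groups overlapped, since control replicate 3 was below mutant replicates 1 and 2.

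The 18 long genes under the reporting minimum include the longest of all, Myo81F on 3R, whose span of 1668527 bases held 3, 3 and 2 counts in mutant and 3, 1 and 2 in control libraries. Pzl, at 709450 bases, and lovit, at 434041 bases, had at most 3 counts in any library. Snap25, a synaptic protein, had 3 to 7 counts per library in either group. CG34353 on 3R had 17, 22 and 7 counts in mutant and 2, 2 and 0 in control libraries, and lncRNA:CR44357 on X had 6, 5 and 1 against 15, 9 and 7. In both the groups did not overlap after scaling. The scaled ratio of mutant to control sums for lncRNA:CR44357 was 0.399 (exact 95% interval 0.186 to 0.798, for counting error only), and 24.4% of its exon is shared with another gene on the same strand. The other 16 had between 0 and 12 counts in every library. A further 4 genes of this length on the Y chromosome, outside the arms considered, had 0 counts in all libraries.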

How the data were processed

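RNA was taken up in TRIzol and the poly(A) fraction made into directional NEBNext Ultra II libraries, per the labels' protocols. Each library has 1 deposited table of whole-number read counts per gene, with position and genomic length. The submitters' processing notes name TopHat2, HTSeq, DESeq2 and the builds dm6 and BDGP6. Versions, strand setting and annotation release: not given in the sources used here. For that reason genes sharing exon with another gene are called uncertain.

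Counts were fitted with edgeR 4.0.16 in R 4.3.3 over the whole table (filterByExpr, minimum count 10, 8110 genes, TMM factors of 0.986 to 1.01, robust quasi-likelihood test, mutant against control, no covariate). P-values were adjusted by Benjamini-Hochberg over all tested genes and called under 0.05 with no minimum fold. The common biological coefficient of variation was 6.63%. SEs come from the fold change and its F statistic. CPM values use the TMM factors. The fit was tested on simulated counts.

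Transcripts, exons, nested genes and symbols came from the Ensembl annotation of BDGP6, by gene ID for 68 of the 69 genes and by position for l(3)80Fg. Coordinates are 1-based. No sequence is printed. The members, role lists, windows and marker lists were chosen with earlier results of these data known, and some roles were added after the members were seen. Genes named are all called members, the 5 longest, the 6 highest per kilobase of exon, the 4 largest changes not called, those in the windows and up to 3 per role list. Other named genes were picked with their values in view. The alternatives tried were DESeq2 1.42.0, limma-voom (limma 3.58.1), relative log expression factors and library totals alone for scaling, other filters, a 2-fold minimum, a replicate block, leaving out libraries (both replicates numbered 2 added after seeing the data), no same-strand exon overlap, and length minimums of 50 and 200 kb. Library depth of over 21583524 counts leaves genes with few counts imprecise.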

Additional observations from a re-analysis of the deposited data

Results flagged for a closer look

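CG34353 (FBgn0085382), a protein-coding gene of 138 kb on 3R at 27767966 to 27905843, was below the reporting minimum. The filter on low counts left it out of the main comparison. It drew attention because its counts in mutant libraries exceeded those in control libraries. It had 46 counts summed over the 3 mutant libraries and 4 over the 3 control libraries. The scaled ratio was 11.8 (exact 95% interval 4.33 to 45.3, for counting error only). The counts were 17, 22 and 7 against 2, 2 and 0, so the mutant libraries differed among themselves, with replicate 3 the lowest. It was called higher in 5 alternatives, with no filter on low counts and without mutant replicate 3 or any 1 control replicate, with edgeR adjusted p-values of 0.00269 to 0.0458. It was picked for its high mutant counts, and with a library left out it passed the filter only through mutant replicates 1 and 2. These p-values are therefore not independent support for a rise.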

How the results depend on the processing

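The count of 11 called long genes (6 higher, 5 lower) was 11 to 15 under other scalings, tools and filters. That is 15.1% to 21.7%, against 10.3% to 15.4% of all genes in those fits. It was 9 (4 higher, 5 lower) among genes with no exon overlap on the same strand, a set that leaves out Ten-a and Ten-m. That is 15.3%, against 14.7% of all genes in that fit. Single libraries left out gave 7 to 20 called, 4 to 14 higher and 3 to 6 lower. The largest count came without mutant replicate 3 and the smallest without mutant replicate 2 or control replicate 1. As shares these are 10% to 28.6% of the long genes, against 6.88% to 17.9% of all genes in those fits. Without both replicates numbered 2, 7 were called (10.1%, against 6.3% of all genes) and 3 were lower. In each of these fits the share called was higher among the long genes than among all genes, a difference that was not tested. With a 2-fold minimum 4 were called (5.8%, against 2.28% of all tested genes), 2 higher and 2 lower. A length minimum of 50 kb gave 31 called, 14 higher and 17 lower, and one of 200 kb gave 3, all higher (0 lower), with a median log2 fold change of 0.54. These settings use fewer libraries, other genes or a minimum fold. The reasons for the differences in count, among them the rise without mutant replicate 3, were not tested. The median log2 fold change of the 69 was −0.004 to 0.05 with single libraries left out. The share difference stayed negative, from −0.0258 to −0.00477 percentage points with single libraries left out.

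Same-numbered libraries deviated in opposite directions (correlations of −0.23, −0.26 and −0.12), so the values showed no pairing by number. Deviations from means of 3 libraries constrain one another, so these correlations cannot settle whether the replicates were prepared in pairs. With the replicate number as a block, 8 long genes were called (4 higher, 4 lower), all among the 11. That is 11.6%, against 8.98% of all genes, of which 728 were called with the block and 1177 without it. Across the alternatives run, no named gene past the threshold changed direction. Depth limits the genes with few counts, such as lncRNA:flam with 10 to 20 per library.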
